A study of Mus musculus with 30 samples.

Results

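RNA sequencing of adipose tissue macrophages (ATMs) was compared between 3 libraries of *Ob/Ob* recipients treated with a GLP-1R agonist and 3 libraries of lean WT recipients. The comparison gives the difference of treated obese mice from lean ones, whether or not untreated obese mice had it. These 6 libraries were chosen by their labels from the 30 of the series, which holds 15 libraries of ATMs and 15 of bone marrow (BM). In the study, BM cells of *Shp2* E76K/+;*LysM-Cre*+ donors (CD45.2+) were mixed 1:1 with BM cells of Boy/J mice (CD45.1+) and given to lethally irradiated recipients (700 plus 400 cGy). The activating *Shp2* allele thus depends on a Cre driven from the lysozyme promoter of myeloid cells, and each recipient also carried normal competitor cells. *Ob/Ob* recipients, which lack leptin, were treated for 30 days from 8 weeks after transplantation, and WT recipients had no listed treatment, so their comparison sets lean against treated obese mice. ATMs were cells positive for F4/80 sorted from visceral fat.

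The GLP-1R agonist group received beinaglutide, a short-acting GLP-1 peptide, at 3 mg/kg under the skin. The other *Ob/Ob* groups received vehicle (Vehicle), an anti–IL-17A antibody at 200 µg per mouse 3 times a week, or both agents (Combo), and their 9 ATM libraries entered the statistical fit with the 6 compared here. According to the labels, mice were 12–14 weeks old, of both sexes and on a C57BL/6 background, each group had 3 mice, and all samples belong to batch 1. The labels, followed here, give the same mutant donor for lean and obese recipients. A legend of the study instead sets ATMs from mutant donor cells against ATMs from WT donor cells, both in *Ob/Ob* mice. The labels and that legend thus differ on donor and recipient of the WT group. A difference in donor cells cannot be told apart from the other differences. WT and treated mice differ in leptin genotype, body fat and treatment at once, and the comparison does not separate these. Below, "after treatment" and "treated" name the GLP-1R agonist libraries and do not mean a change from before treatment.

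Macrophages of lean fat are largely resident cells that take up debris and hold genes such as *Lyve1*, *Cd209f* and *Retnla*. In obese fat, monocytes enter and become lipid-associated macrophages, which surround dying adipocytes, take up lipid through receptors such as CD36 and TREM2, and degrade it in lysosomes. GLP-1 receptor agonists lower food intake and weight largely by acting on receptors in the brain, and macrophages are not a main site of receptor expression. Expression of *Glp1r* was not analysed here.

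The libraries held 24876074 to 28369275 counts in WT and 25673711 to 39778889 in the GLP-1R agonist group. Values below are normalized counts, the counts of a library divided by its effective size and scaled to the mean of the 15 ATM libraries, given in the order of replicates 1, 2 and 3. Values of BM are scaled to the mean of all 30 libraries instead. Libraries of a group were very alike, with a median coefficient of variation of 6.31% in WT and 6.26% in the GLP-1R agonist group over genes above 1000 normalized counts. They were not copies of each other, since the squared differences between libraries of a group, divided by the variance that counting predicts, had a median over genes of 4.74 to 6.39, against 0.455 for counting error alone. Nothing in the files tells whether the libraries of a group hold the spread between mice or that of a shared pool, so p-values measure the spread between these libraries.

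The gene of the sorting marker was present in all libraries. *Adgre1*, which encodes F4/80, had 6387, 6731 and 7619 normalized counts in WT and 12445, 13000.1 and 13372 in the GLP-1R agonist libraries (log2 fold change 0.90 ± 0.12, edgeR adjusted p = 3.13e-05, where ± is the standard error, with 3 libraries a group here and below). That fell short of the log2 limit of 1 that a call requires. *Ptpn11*, the gene that encodes SHP2, had 2575, 2580.4 and 1703 in WT and 2543, 2906 and 2474 in the treated group (log2 fold change 0.21 ± 0.18, edgeR adjusted p = 0.402), and its counts do not tell the mutant allele from the normal one. Transcripts of fibroblasts were abundant in both groups. Their list of 14 markers summed to 1.93 to 1.99% of all counts in WT and 2.65 to 2.68% in the treated libraries.

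Sex-linked genes placed both groups on the same side. *Xist*, the RNA that silences the second X chromosome in females, had 14.3, 8.42 and 26.1 normalized counts in WT, 0 in the 3 GLP-1R agonist libraries and 998, 1218 and 1533 in Vehicle. The Y-linked *Ddx3y* had 3767, 3678 and 3760.1 in WT, 5156, 5731 and 5459 in the GLP-1R agonist group and 537, 515 and 247 in Vehicle. The edgeR call of *Xist* between WT and the GLP-1R agonist group (adjusted p = 0.0424) was lost whichever of the 6 libraries was left out (adjusted p from 0.0512 to 0.119). WT and GLP-1R agonist libraries thus share a pattern of mainly male cells, while the Vehicle and Combo libraries show the pattern of mainly female cells. Wherever Vehicle values are given below, treatment and this difference cannot be told apart.

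Transcripts of the male reproductive tract also set the 2 groups apart. *Svs4*, a secreted protein of the seminal vesicle, had 3.57, 3.16 and 0 normalized counts in WT and 21769, 21542 and 21535 in the GLP-1R agonist libraries, and *Svs5* had 33.3, 17.9 and 18.5 and 25996, 25951 and 24479. Genes of the epididymis went the other way. *Crisp1*, a secreted protein that coats sperm, had 99195, 98367 and 103355 in WT and 1473, 1383 and 1498 in the treated group. *Akr1b7*, an aldose reductase of the vas deferens and adrenal that was chosen after its values were seen, had 425128, 430876 and 433652 and 4960, 4979 and 4781 (log2 fold change -6.45 ± 0.14, edgeR adjusted p = 2.07e-14). Part of the visceral fat of male mice lies against these organs. Summed over 8 seminal vesicle markers, counts were 859.7 to 993 in WT and 75797 to 78861 in the treated libraries, and over 15 epididymis markers they were 122818 to 127402 and 2235 to 2458. The summed values of the 3 libraries of a group lay within a narrow range for both lists. How these transcripts came into the sorted cells was not tested.

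Of 17059 genes, 2578 (15.1%) passed a false discovery rate below 0.05 with a fold change above 2, the log2 limit of 1 used throughout, in the edgeR test of GLP-1R agonist against WT. Of these, 1313 were higher in the GLP-1R agonist group (7.7% of the genes tested) and 1265 lower (7.42%), and 1126 differed by more than 4-fold. The 3 libraries of a group did not overlap those of the other for 9453 genes (55.4%). Called genes named below were mostly picked by small adjusted p or large change, so a lack of overlap among them adds no support. The fold changes of all genes had a median of 0.03 on the log2 scale. The test of Vehicle against WT in the same fit called 6034 genes (35.4%), of which 2125 were higher in Vehicle (12.5%) and 3909 lower (22.9%). Treated and untreated *Ob/Ob* libraries differed in 5417 genes (31.8%), of which 3553 were higher (20.8%) and 1864 lower (10.9%) in the GLP-1R agonist group. The 3 comparisons share their libraries in pairs, and their counts are not independent.

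**Figure D1:**
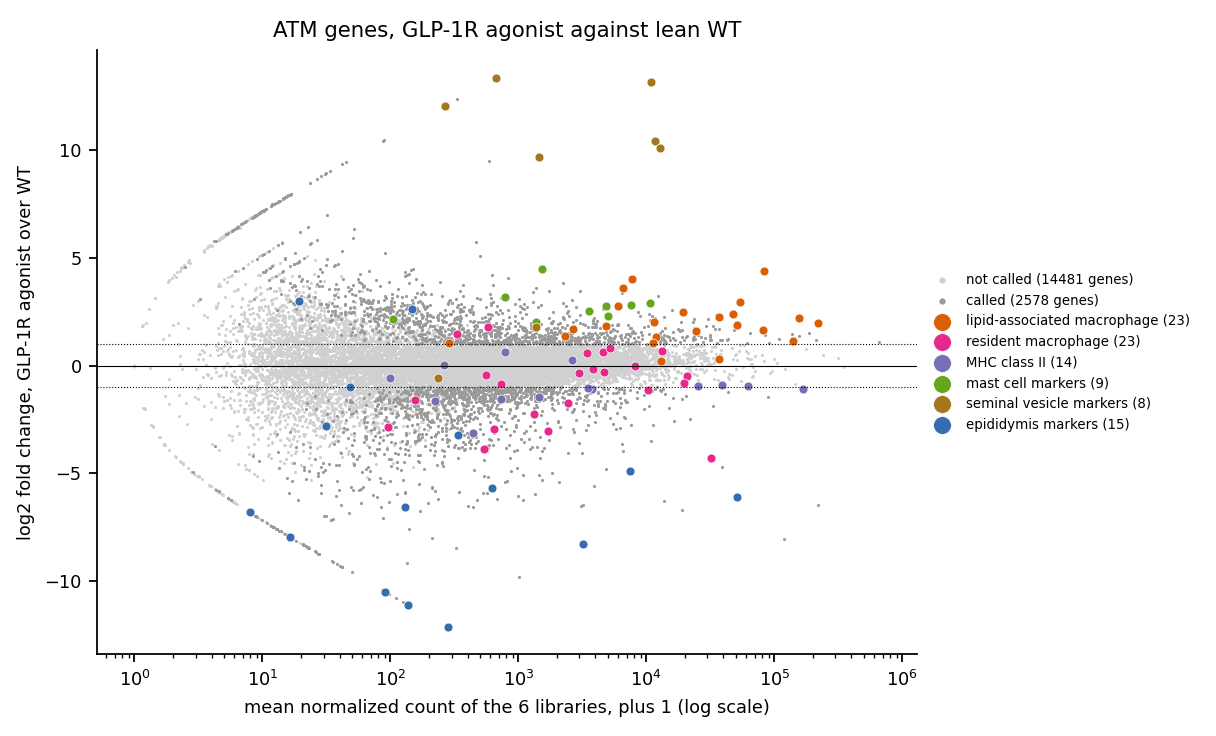
Log2 fold change of GLP-1R agonist over WT in ATMs (y) against the mean normalized count of the 6 libraries plus 1 (x, log scale), 1 point per gene. Light grey points are genes not called, dark grey points the 2578 called, and dotted lines mark a log2 fold change of 1 in either direction. Lipid-associated macrophage genes lie above 0, and most seminal vesicle and epididymis markers near the extremes. The curved edges hold genes at 0 in one group, whose fitted fold change depends on the prior count.

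The extremes of the comparison included many genes of the male tract. Among genes that were called and averaged 50 counts or more, 7 of the 10 largest positive changes belonged to genes named after the seminal vesicle (*Svs1*, *Svs2*, *Svs3a*, *Svs4*, *Svs5*, *Svs6* and *Sva*). *Svs3a* had 0 counts in all WT libraries and 1377, 1394 and 1231 normalized counts in the treated group, at least 400.2-fold higher against a floor of 3 counts per library. *Cyp11b1*, the adrenal enzyme of the last step to corticosterone, was likewise at 0 in WT and at 565, 493 and 536 in the GLP-1R agonist libraries, at least 159-fold higher. *Spink1*, a trypsin inhibitor, and *Ivl*, a protein of the cornified envelope of skin, completed this set. Both were at 0 in WT, with at most 204 and 218 normalized counts in a treated library.

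Among the 10 largest negative changes, *Adam7*, *Gpx5* and *Rnase9* are genes of the epididymis. *Adam7* had 512, 612 and 555 normalized counts in WT and 0 in every GLP-1R agonist library, at least 174-fold lower. *Ren2*, *Wee2*, *Abcb5* and *2300002M23Rik* were also at 0 in all treated libraries, *Veph1* had 1 count in 1 of them, and *Slc28a3* and *Gm9573* had at most 3 and 5 counts. Vehicle and Combo libraries, with their female pattern, held few of these transcripts. The anti–IL-17A libraries held more, with summed normalized counts of 13902 to 15522 for seminal vesicle markers and 7093 to 8381 for epididymis markers. By a split chosen after seeing the data, 384 of the 2578 called genes had 3 counts or fewer in every Vehicle and Combo library, 303 of them higher and 81 lower in the GLP-1R agonist group. The other 2194 calls (1010 higher and 1184 lower) rest on genes with more counts than that in at least 1 of those libraries.

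Lipid-associated macrophage genes were higher in the GLP-1R agonist group than in lean macrophages almost throughout. Of 23 genes, 21 were called, all higher, with a median log2 fold change of 1.89 against 0.03 for all genes. Summed over the list, they took 1.42 to 1.46% of all counts in WT and 4.62 to 4.72% in the treated libraries. In normalized counts the list summed to 419877 to 438273 in WT and 1602490 to 1642950 in the GLP-1R agonist group. Sums were 788784 to 807640 in Vehicle, 1150780 to 1175480 in Combo and 2060890 to 2075320 with the anti–IL-17A antibody alone. The high level was thus not particular to the GLP-1R agonist group. *Gpnmb* (chr6:49036546-49070929, plus strand, GRCm38), a transmembrane glycoprotein of lysosome-rich macrophages, had 7349, 7052 and 7758 normalized counts in WT and 158476, 157711 and 156058 in the GLP-1R agonist group. Every treated library lay far above every WT library (log2 fold change 4.41 ± 0.038, edgeR adjusted p = 3.42e-19). Vehicle libraries had 27197, 25330.2 and 26392, between both groups.

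*Plin2*, which coats lipid droplets, had 14903, 15290 and 15069 in WT and 80551, 82344 and 79161 after treatment (log2 fold change 2.42 ± 0.025, edgeR adjusted p = 1.22e-18). *Lgals3*, the lectin galectin-3, had 12182, 12326 and 12532 and 94159, 95383 and 94319 (log2 fold change 2.94 ± 0.031, edgeR adjusted p = 1.76e-18). Neither gene's libraries overlapped between the groups, as was so for 55.4% of all genes. In Vehicle, the level of *Plin2* was higher than in both (113966, 112821 and 111400), and that of *Lgals3* lay between them (49191, 45211 and 47361). 

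Other members were chosen after their values were seen. *Trem2*, the lipid-sensing receptor of these cells, had a mean of 1537 in WT, 10458 in the GLP-1R agonist group and 1581 in Vehicle (log2 fold change 2.77 ± 0.084, edgeR adjusted p = 7.15e-13). *Spp1*, the secreted phosphoprotein osteopontin, had 909, 14618 and 14453 (log2 fold change 4.01 ± 0.089, edgeR adjusted p = 1.98e-14), and 18.8% of its exon bases are shared with another gene. For *Trem2* the untreated *Ob/Ob* libraries were thus at the lean level and the treated ones above it, while for *Spp1* both *Ob/Ob* groups lay above WT. *Lpl*, the lipase that frees fatty acids from lipoproteins, had 12816, 12489.7 and 12810.1 in WT, 62045, 61305 and 59481 in the treated group and 10209, 9000.2 and 11119 in Vehicle (log2 fold change 2.26 ± 0.054, edgeR adjusted p = 4.01e-14). *Apoe*, an apolipoprotein of cholesterol efflux, had 85308, 87403 and 87749.6, 192120, 198920 and 187469 and 30472, 29773 and 30269.9 (log2 fold change 1.15 ± 0.028, edgeR adjusted p = 5.49e-14). The genes not called were *Fabp4*, a fatty acid carrier shared with adipocytes (log2 fold change 0.30, edgeR adjusted p = 1.25e-06), and *Lgals1* (log2 fold change 0.22, edgeR adjusted p = 0.00124). Calls of *Cd9* and *Dcstamp* were lost when single libraries were left out, *Cd9* without GLP-1R agonist replicate 2 (log2 fold change 0.99, adjusted p = 3.57e-09) and *Dcstamp* without GLP-1R agonist replicate 3 (log2 fold change 0.94, adjusted p = 0.0413) or WT replicate 1 (log2 fold change 0.86, adjusted p = 0.0514).

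A lysosome list also gave only higher calls, and 6 of its called genes (*Ctsd*, *Ctsb*, *Ctsl*, *Atp6v0d2*, *Cd63* and *Lipa*) also belong to the list above. Of 34 genes, 15 were called and all 15 were higher, with a median of 0.86, and 33 of 34 had a positive fold change. The list summed to 469979 to 493182 normalized counts in WT and 1431700 to 1458100 in the GLP-1R agonist group. Sums were 593633 to 598722 in Vehicle, 1012290 to 1034520 in Combo and 1833680 to 1859810 with the anti–IL-17A antibody alone. *Ctsd*, the aspartic protease cathepsin D, had 54957, 54364 and 57284 normalized counts in WT and 260784, 258188 and 252689 in the GLP-1R agonist group (log2 fold change 2.21 ± 0.023, edgeR adjusted p = 1.22e-18). *Ctsb*, a cysteine protease, had 83481, 91606 and 91649 and 354583, 351934 and 349040 (log2 fold change 1.98 ± 0.032, edgeR adjusted p = 4.82e-16). Cathepsins L and S, encoded by *Ctsl* and *Ctss*, were also higher, with log2 fold changes of 1.89 and 1.83. Among the genes not called, the membrane proteins *Lamp1* and *Lamp2* had log2 fold changes of 0.81 and 0.29. *Cd63*, another membrane protein, was higher (log2 fold change 1.61, edgeR adjusted p = 2.62e-14). Exons of *Ctsd*, *Ctsl* and *Ctsb* overlap those of other annotated genes over 34.4%, 26.8% and 12.8% of their bases, and reads there were counted for both. *Ctsd* had 72812, 72537 and 73487 in Vehicle (Vehicle against WT 0.39, not called).

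The promoter windows of 2 members of these lists are printed because both were among the genes with the smallest adjusted p and both hold the letters TCACGTG, the E box of the CLEAR type bound by TFEB, a master regulator of lysosomal genes. Windows run from 250 bases before to 50 after a RefSeq transcription start (GRCm38.p6), 5′ to 3′ on the strand of the gene, and capitals mark matches on either strand, which in *Ctsd* include a pair that overlap as a palindrome. The *Ctsd* window is chr7:142387778-142388077, minus strand, and the *Plin2* window chr4:86670010-86670309, minus strand.
Ctsd: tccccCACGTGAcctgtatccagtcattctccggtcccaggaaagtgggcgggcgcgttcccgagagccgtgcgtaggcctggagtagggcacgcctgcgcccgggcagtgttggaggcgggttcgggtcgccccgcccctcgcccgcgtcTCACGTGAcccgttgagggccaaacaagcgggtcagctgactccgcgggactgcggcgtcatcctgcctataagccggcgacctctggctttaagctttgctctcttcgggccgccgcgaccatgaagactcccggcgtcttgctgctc
Plin2: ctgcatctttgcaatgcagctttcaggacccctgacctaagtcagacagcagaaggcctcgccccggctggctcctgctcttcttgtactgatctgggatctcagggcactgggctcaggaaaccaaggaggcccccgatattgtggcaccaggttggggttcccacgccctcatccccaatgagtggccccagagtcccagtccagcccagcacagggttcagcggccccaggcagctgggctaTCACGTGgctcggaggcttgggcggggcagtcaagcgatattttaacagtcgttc
TCACGTG was found in the windows of 9 of 26 lysosome genes that have one (34.6%), against 6.17% of 12790 tested genes with a window and 3.77% of all 32851 windows. It was in 3 of 12 lysosome genes that were called and in 6 of 14 that were not. In the lipid-associated list, 2 of 15 windows held it, those printed.

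General macrophage genes gave only higher calls as well. Of 20, 10 were called and all 10 were higher, with a median of 1.06. The list summed to 215019 to 225120 normalized counts in WT and 493513 to 512677 in the GLP-1R agonist group. Sums were 206468 to 217013 in Vehicle, 513135 to 514028 in Combo and 723722 to 729703 with the anti–IL-17A antibody alone. *Cd68*, a glycoprotein of macrophage endosomes, had 8719, 8651 and 8674 in WT and 38642, 40251 and 37555 in the GLP-1R agonist group (log2 fold change 2.16 ± 0.041, edgeR adjusted p = 3.62e-15). *Lyz2*, the lysozyme gene whose promoter drives the Cre of the donors, had 68624, 72162 and 73275 and 203245, 204592 and 195047 (log2 fold change 1.49 ± 0.032, edgeR adjusted p = 1.04e-14). Both genes were non-overlapping between the groups, like 55.4% of all genes, and *Lyz2* was lowest in Vehicle (30253, 29822 and 32271). *Spi1*, the myeloid transcription factor PU.1, was higher with a log2 fold change of 1.38, edgeR adjusted p = 2.01e-12. The complement genes *C1qb* and *C1qc* fell just short of the limit at 0.96 and 0.98. In bulk RNA, more macrophages in a sort and more of these transcripts per macrophage cannot be told apart.

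Calls among resident macrophage genes were mostly lower. Of 23, 8 were lower and 2 higher, and the median was -0.47. *Retnla* (chr16:48842551-48844461, plus strand, GRCm38), a secreted resistin-like protein of macrophages exposed to IL-4, had 62282, 60692 and 60581 in WT and 3115, 3075 and 3323 in the GLP-1R agonist group. Lean libraries were 19.3-fold above the treated ones in the mean, without overlap (log2 fold change -4.27 ± 0.061, edgeR adjusted p = 1.23e-16). *Cd209f*, a C-type lectin, had 3192, 2929 and 3058 and 398, 318 and 405 (log2 fold change -3.03 ± 0.15, edgeR adjusted p = 1.95e-09), and all Vehicle libraries were at 0. *Mgl2*, the galactose-binding lectin CD301b, had 1979, 2243 and 2303 and 524, 435 and 407 (log2 fold change -2.26 ± 0.21, edgeR adjusted p = 4.46e-07). *Fcna*, a ficolin of the lectin pathway, was lower by less (log2 fold change -1.14 ± 0.11, edgeR adjusted p = 1.08e-06). *F13a1* and *Gas6* were not called, with log2 fold changes of -0.47 and -0.78. The call of *Cd209d*, another lectin, was lost when any library but WT replicate 1 was left out (adjusted p 0.0569 to 0.0952).

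The 2 resident genes that were higher, named after their values were seen, were *Vsig4*, a complement receptor (log2 fold change 1.82, edgeR adjusted p = 0.0269), and *Cd5l*, a secreted inhibitor of apoptosis (log2 fold change 1.47, edgeR adjusted p = 1.00e-04). The call of *Vsig4* was lost whichever of the 6 libraries was left out, with adjusted p from 0.0556 to 0.0793. In Vehicle, 19 of the 23 resident genes were lower than in WT and none higher, with a median of -2.96, and 18 were higher in the GLP-1R agonist group than in Vehicle. *Fcna* illustrates this, with 13870, 14117 and 14642 in WT, 6470.1, 6656 and 6199.7 in the treated group and 109.5, 204 and 177 in Vehicle.

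**Figure D2:**
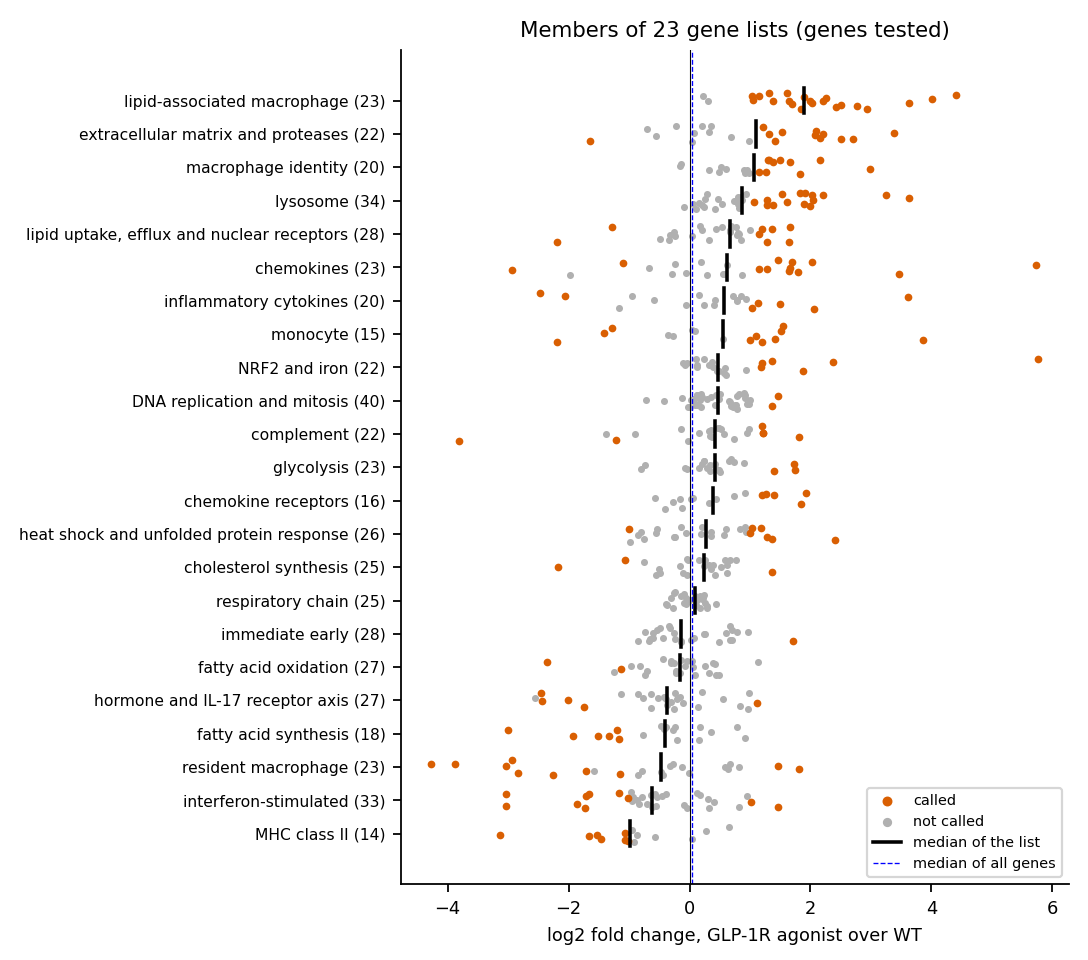
Log2 fold change of GLP-1R agonist over WT in ATMs (x) for the tested members of 23 gene lists (rows, ordered by median), 1 point per gene, orange where called. Black bars are list medians, from 1.89 for lipid-associated macrophage genes to -0.98 for MHC class II genes, and the dashed line is the median of all genes, 0.03.

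MHC class II genes, by which macrophages and dendritic cells present peptides to helper T cells, gave only lower calls. Of 14 genes, 7 were lower than in lean mice and none higher, with a median of -0.98. *Ciita* (chr16:10480059-10528418, plus strand, GRCm38), the transactivator on which the whole class depends, had 669, 989 and 727 in WT and 88.6, 90.8 and 91.6 in the GLP-1R agonist group (log2 fold change -3.14 ± 0.22, edgeR adjusted p = 1.96e-08). *Cd74*, the invariant chain, had 218503, 226162 and 232003 and 107185, 110980 and 103613 (log2 fold change -1.07 ± 0.036, edgeR adjusted p = 2.37e-12). WT libraries were the higher ones for both genes, without overlap, and 55.4% of all genes had no overlap. The α and β chains of the I-A molecule, *H2-Aa* and *H2-Ab1*, had log2 fold changes of -0.87 and -0.95, inside the limit of 1.

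Of the peptide-loading chaperones, *H2-DMb2* was lower (log2 fold change -1.47 ± 0.16, edgeR adjusted p = 2.05e-06) and *H2-DMb1* was lower at the edge of the limit (log2 fold change -1.02 ± 0.11, edgeR adjusted p = 1.74e-06). These paralogs are similar in sequence, and reads shared by both would not map to one place. The call of *H2-DMb1* was lost without GLP-1R agonist replicate 2 (log2 fold change -0.96, adjusted p = 2.57e-05) or WT replicate 1 (log2 fold change -0.99, adjusted p = 1.87e-05), and that of *H2-DMa* without GLP-1R agonist replicate 3 (log2 fold change -0.99, adjusted p = 6.94e-04). In Vehicle 10 of the 14 genes were lower than in WT and 2 higher, with *Cd74* at 45281, 43229 and 47672 and a median of -2.25, and 7 were higher and 2 lower in the GLP-1R agonist group than in Vehicle. *Ciita* was at 92.2, 77.8 and 76.3 in Vehicle, close to the treated level (GLP-1R agonist against Vehicle 0.14, not called). Of 9 markers of B cells, which also carry these genes, 4 were lower in the same libraries, among them *Cd79a*, *Cd79b* and *Ms4a1*, and a summed level of 18378 to 21421 in WT and 15641 to 16257 in the treated group. Their part in the difference was not tested.

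One window of this class is shown, that of *H2-DMb1* (chr17:34152941-34153240, plus strand, GRCm38.p6), because it alone of 9 class II genes with a window held the letters searched for the X box (CNNAGNN directly followed by ACNGATG), to which the RFX complex recruits CIITA. Capitals mark the match.
H2-DMb1: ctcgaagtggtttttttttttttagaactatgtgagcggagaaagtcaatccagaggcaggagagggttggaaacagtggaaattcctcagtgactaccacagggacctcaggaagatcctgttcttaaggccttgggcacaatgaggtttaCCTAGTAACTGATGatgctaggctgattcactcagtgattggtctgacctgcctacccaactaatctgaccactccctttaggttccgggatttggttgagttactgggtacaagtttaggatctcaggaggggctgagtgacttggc
These letters were found in 0.266% of tested genes with a window and in 0.237% of all windows, on either strand.

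Interferon-stimulated genes, the antiviral program that Vehicle libraries carry at a high level, gave more lower than higher calls here. Of 33 genes, 8 were lower, 2 higher and 23 not called, with a median of -0.63. *Irgm1* (chr11:48861968-48871683, minus strand, GRCm38), a GTPase induced by interferon gamma, had 9391, 9493 and 10228 in WT, 3011, 2961 and 2892 in the treated group and 33299, 35869 and 35468 in Vehicle. The treated libraries were the lowest of the 3 groups (log2 fold change -1.72 ± 0.073, edgeR adjusted p = 3.68e-11 against WT). *Iigp1*, a related GTPase, had 6188, 6432 and 7121 in WT and 1831, 1851 and 1781 after treatment (log2 fold change -1.85 ± 0.087, edgeR adjusted p = 1.33e-10). *Oasl1* was higher, with 2255, 2146 and 2671 and 6507, 6514 and 6439 (log2 fold change 1.46 ± 0.086, edgeR adjusted p = 2.14e-09). *Ifit1* was higher at the edge of the limit (log2 fold change 1.02, edgeR adjusted p = 2.62e-09), and its call was lost without GLP-1R agonist replicate 1 (log2 fold change 0.99, adjusted p = 4.50e-08), without WT replicate 1 (log2 fold change 0.98, adjusted p = 6.14e-08) and with DESeq2's size factors. *Rsad2*, not called, had 6687, 6914 and 7541 in WT, 7994, 8463 and 7333 after treatment and 193023, 206420 and 210339 in Vehicle. Against WT, Vehicle was higher in 33 of 33 of these genes.

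The window of *Irgm1* (chr11:48871371-48871670, minus strand, GRCm38.p6) is printed as that of a called gene of the list that holds GAAA a second time after any 2 bases (GAAANN, then GAAA), the interferon-stimulated response element bound by STAT and IRF factors. Capitals mark 2 matches that overlap.
Irgm1: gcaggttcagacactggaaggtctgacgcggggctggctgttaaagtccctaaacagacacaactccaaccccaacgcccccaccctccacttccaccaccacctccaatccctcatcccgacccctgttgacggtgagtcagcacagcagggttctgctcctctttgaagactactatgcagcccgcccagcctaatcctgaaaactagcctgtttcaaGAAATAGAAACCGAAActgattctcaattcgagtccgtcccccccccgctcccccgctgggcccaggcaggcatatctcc
These letters were in the windows of 17 of 24 genes of the list (70.8%), against 3.78% of tested genes with a window and 3.44% of all windows. Of the genes called in GLP-1R agonist against WT, 2 of 6 held them, and of those not called 15 of 18.

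Chemokine calls were mostly higher. Of 23, 10 were higher, 2 lower and 11 not called, with a median of 0.61. *Ccl2*, which draws monocytes into fat through CCR2, had 9411, 8785 and 9162 in WT and 28240.3, 29112 and 28728 in the GLP-1R agonist group (log2 fold change 1.65 ± 0.051, edgeR adjusted p = 7.20e-13), and 131406, 125826 and 140781 in Vehicle. *Ccl4*, an attractant of monocytes and T cells, had 4310.1, 4142 and 4484 and 14786, 15035 and 14975 (log2 fold change 1.79 ± 0.045, edgeR adjusted p = 6.10e-14). *Cxcl1*, a neutrophil attractant, had 16489, 15582 and 16693 and 50286, 52018 and 55017 (log2 fold change 1.69 ± 0.057, edgeR adjusted p = 2.35e-12), and *Cxcl14* 268, 288 and 312 and 3181, 3197 and 3178 (log2 fold change 3.46 ± 0.13, edgeR adjusted p = 9.54e-12). For these 4 genes every treated library exceeded every WT library, and 55.4% of all genes had no overlap in either direction. Those lower, named after their values were seen, were *Ccl24*, an eosinophil attractant of resident macrophages (log2 fold change -2.94, edgeR adjusted p = 3.96e-05), and *Ccl22* (log2 fold change -1.10, edgeR adjusted p = 5.29e-04), whose call was lost without WT replicate 3 (log2 fold change -0.95, adjusted p = 0.00389). *Cxcl10*, a chemokine induced by interferon, was near the lean level with 15073, 15434 and 16180.1 in WT, 11881, 13455 and 12819 after treatment and 160001, 163330 and 176998 in Vehicle.

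Among 16 chemokine receptors and related receptors, 5 were higher and none lower. Among them were *C3ar1*, the receptor of complement C3a (log2 fold change 1.20, edgeR adjusted p = 2.64e-09), *Cxcr3* (log2 fold change 1.93, edgeR adjusted p = 4.30e-07), *Cxcr6* (log2 fold change 1.39, edgeR adjusted p = 1.46e-05) and *Fpr1* (log2 fold change 1.84, edgeR adjusted p = 5.32e-05). *Cxcr3* and *Cxcr6* are also receptors of T cells, whose markers were higher in the same libraries.

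Inflammatory cytokines were mixed. Of 20 genes, 5 were higher and 2 lower, with a median of 0.57. *Saa3*, an acute-phase apolipoprotein, had 187, 224 and 208 in WT and 2685, 2356 and 2562 in the GLP-1R agonist group (log2 fold change 3.62 ± 0.073, edgeR adjusted p = 7.30e-15), and 118319, 105108 and 114249 in Vehicle. *Il1rn*, the antagonist of the IL-1 receptor, had 1415, 1543 and 1471 and 6061, 5781 and 6571 (log2 fold change 2.06 ± 0.064, edgeR adjusted p = 8.70e-13). *Ptgs2*, the cyclooxygenase that makes prostaglandin H2, was lower, with 36059, 37817 and 37080.2 in WT and 6918, 6424 and 6683 after treatment (log2 fold change -2.47 ± 0.076, edgeR adjusted p = 7.30e-13). Lean libraries thus held the highest *Ptgs2*, above Vehicle too (8623, 9021 and 9458). *Tnfsf9* was higher (log2 fold change 1.04, edgeR adjusted p = 2.78e-07), and, named after their values were seen, so were *Il10* (log2 fold change 1.50, edgeR adjusted p = 3.08e-06) and *Lif* (log2 fold change 1.14, edgeR adjusted p = 0.00205), while *Il18* was lower (log2 fold change -2.07, edgeR adjusted p = 9.79e-05). *Il6* and *Csf1* did not reach the limit, with log2 fold changes of 0.86 and 0.72.

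Monocyte genes split. Of 15, 7 were higher and 3 lower, with a median of 0.56. *Chil3*, a chitinase-like protein of recruited macrophages, had 259.6, 371 and 231 in WT and 4076, 4094 and 4365 after treatment (log2 fold change 3.86 ± 0.12, edgeR adjusted p = 8.70e-13), and *Plac8* had 9673, 9556 and 9797 and 2215, 2181 and 1976 (log2 fold change -2.19 ± 0.059, edgeR adjusted p = 1.36e-13). The first was higher and the second lower in all treated libraries. Both were highest in Vehicle, at a mean of 23189 and 26102. *Ms4a4c*, also lower, was named after its values were seen, with a log2 fold change of -1.41. Leaving out single libraries gave 4 to 6 higher calls, since *Ly6c2* was lost in 4 of the 6 cases (log2 fold change 0.98 to 1.00), *Treml4* in 5 (adjusted p 0.0559 to 0.163) and *Gpr141* in 3 (adjusted p 0.103 to 0.191). *S100a4*, a calcium-binding protein, was higher (log2 fold change 1.20, edgeR adjusted p = 6.49e-09), with 51.7% of its exon bases shared with other genes.

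Complement genes gave calls in both directions, with 4 higher and 2 lower of 22 and a median of 0.42. *C4b* had 26316, 27141 and 25374 and 61542, 60216 and 61944 (log2 fold change 1.22 ± 0.063, edgeR adjusted p = 4.29e-10). *Cfd*, the adipocyte-derived factor D, had 3088, 2859 and 2873 and 215, 230.3 and 182 (log2 fold change -3.82 ± 0.34, edgeR adjusted p = 2.75e-07). *Itgb2*, the β chain of the complement receptor CR3, was higher (log2 fold change 1.22, edgeR adjusted p = 4.30e-10). *C3* was not called, at 0.52. Counted among the others were *C3ar1* and *Vsig4*, given above, and *Cd55*, lower (log2 fold change -1.22, edgeR adjusted p = 1.40e-06) and named after its values were seen.

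Calls in fatty acid synthesis and desaturation were all lower. Of 18 genes, 6 were lower, none higher and 12 not called, with a median of -0.41. *Fads2*, the Δ6 desaturase, had 5855, 6072 and 6034 in WT and 711, 819.6 and 706 in the GLP-1R agonist group (log2 fold change -3.01 ± 0.17, edgeR adjusted p = 1.48e-09). *Scd1*, the Δ9 desaturase, had 19792, 20349.8 and 19617 and 7995, 7318 and 8347 (log2 fold change -1.34 ± 0.14, edgeR adjusted p = 1.53e-06). *Thrsp*, a regulator of lipogenesis, had 927, 894 and 1065 and 241, 245 and 272 (log2 fold change -1.93 ± 0.15, edgeR adjusted p = 6.82e-08), and *Fads1* a log2 fold change of -1.20, edgeR adjusted p = 5.27e-06. None of these genes overlapped between the groups, as was so for 55.4% of all genes. *Acly* and *Elovl5* were not called, at -0.43 and 0.78. Of 11 adipocyte markers, 5 were lower in the same libraries, 2 of which (*Plin1* and *Slc2a4*) were lost in 6 and 4 of the 6 cases when a library was left out (adjusted p 0.0604 to 0.145 and 0.0712 to 0.0993), with a summed level of 7911 to 8455 in WT and 4266 to 4647 after treatment. Their part in these values was not tested.

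Calls in lipid uptake and efflux were mostly higher. Of 28, 6 were higher and 2 lower, with a median of 0.67. *Cd36*, a receptor for fatty acids and oxidized lipoproteins, had 38657, 39839 and 40119 in WT and 124021, 123773 and 121235 after treatment (log2 fold change 1.64 ± 0.029, edgeR adjusted p = 1.26e-15). Also higher were the scavenger receptor *Msr1* (log2 fold change 1.67, edgeR adjusted p = 3.54e-09), the cholesterol exporter *Abcg1* (log2 fold change 1.15, edgeR adjusted p = 1.78e-08), and *Soat1*, which esterifies cholesterol for storage (log2 fold change 1.20, edgeR adjusted p = 1.80e-08). The lower genes, named after their values were seen, were *Apoc1* (log2 fold change -2.19, edgeR adjusted p = 4.69e-04) and *Plin4* (log2 fold change -1.29, edgeR adjusted p = 1.25e-04). *Lrp1* and *Pltp* were not called, at 0.67 and 0.54.

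Fatty acid oxidation and respiration genes gave few calls. Of 27 oxidation genes, 2 were lower and none higher (7.41% called, against 15.1% of all genes). *Ehhadh*, a peroxisomal enzyme, was lower (log2 fold change -2.36 ± 0.30, edgeR adjusted p = 1.30e-05), and *Acot1* was lower (log2 fold change -1.13, edgeR adjusted p = 0.0255), a call lost when any library but WT replicate 3 was left out (adjusted p 0.0502 to 0.0899). No gene of 25 of the respiratory chain was called, where 15.1% of all genes were, and their log2 fold changes ran from -0.39 to 0.43. In cholesterol synthesis, with 25 genes, 1 was higher and 2 were lower (12% called, near the share of all genes). The lower ones were *Fdps* (log2 fold change -1.07, edgeR adjusted p = 5.69e-06) and *Tm7sf2* (log2 fold change -2.18, edgeR adjusted p = 0.0104). *Tm7sf2*, a sterol reductase, was at 43.8, 75.9 and 79.4 normalized counts after treatment and at 256, 319 and 326 in WT. Of 23 glycolysis genes, 3 were higher, the hexokinases *Hk2* (log2 fold change 1.75, edgeR adjusted p = 1.19e-09) and *Hk3* (log2 fold change 1.73, edgeR adjusted p = 9.04e-10) and the lactate exporter *Slc16a3* (log2 fold change 1.40, edgeR adjusted p = 3.01e-08). *Ldha* and *Pkm* were not, at 0.66 and 0.74.

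Iron storage and oxidative stress genes were higher in part. Of 22 genes, 6 were higher and none lower, with a median of 0.47. *Hmox1*, which breaks down heme, had 10523, 11423 and 11665 in WT and 59107, 58921 and 56540 in the GLP-1R agonist group (log2 fold change 2.38 ± 0.059, edgeR adjusted p = 6.35e-14). Ferritin chains were higher as well, *Fth1* with 88690.4, 89197 and 86549 and 225832, 225211 and 226091 (log2 fold change 1.36 ± 0.030, edgeR adjusted p = 1.92e-14) and *Ftl1* (log2 fold change 1.19, edgeR adjusted p = 2.04e-12), the latter with 34.6% of its exon bases shared with other genes. *Txnrd1*, a thioredoxin reductase, was higher (log2 fold change 1.20, edgeR adjusted p = 2.81e-09). Heat shock genes gave 6 higher and 1 lower of 26. *Hsph1*, an HSP110 chaperone, had 2996, 3449 and 3463 and 17066, 18041 and 17682 (log2 fold change 2.41 ± 0.076, edgeR adjusted p = 9.78e-13). *Hspa1a* and *Hspa1b* were higher at 1.36 and 1.28, log2 fold changes that are uncertain because the genes are near-identical copies. *Creld2*, the lower gene, was named after its values were seen, and its call was lost without GLP-1R agonist replicate 1 (log2 fold change -0.87, adjusted p = 5.09e-06) or WT replicate 2 (log2 fold change -0.97, adjusted p = 2.91e-05). Of 28 immediate early genes, which respond to handling within minutes, 1 was called (3.57%, against 15.1% of all genes). It was *Fosl1* (log2 fold change 1.71, edgeR adjusted p = 6.65e-08, with 57.2% of its exon bases shared with a gene on the other strand), while *Fos* was at -0.15 and *Egr1* at -0.86.

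Calls among proteases and matrix genes were mostly higher. Of 22, 11 were higher and 1 lower, with a median of 1.10. *Mmp12*, the macrophage elastase, had 5827, 5598 and 5998 in WT and 32963, 33743 and 31789 after treatment (log2 fold change 2.50 ± 0.052, edgeR adjusted p = 1.02e-14). *Mmp3*, stromelysin 1, had 1180.2, 1189.8 and 1053 and 11978, 11866 and 11733 (log2 fold change 3.38 ± 0.070, edgeR adjusted p = 1.02e-14). *Mmp2*, a gelatinase mostly of stromal cells, had 10774, 12059.5 and 10575 and 50728, 48755 and 48927 (log2 fold change 2.15 ± 0.051, edgeR adjusted p = 4.13e-14). Their inhibitor *Timp1* had 347, 377 and 405 and 2560.2, 2432 and 2401 (log2 fold change 2.71 ± 0.071, edgeR adjusted p = 8.51e-14). The lower gene was *Mmp9*, a gelatinase of neutrophils and macrophages (log2 fold change -1.64 ± 0.067, edgeR adjusted p = 2.31e-11). *Timp2* and *Sparc* were not called, at 0.08 and 0.32. Of 14 fibroblast markers, 4 were higher in the same libraries (*Lum*, *Col4a1*, *Col1a1* and *Col15a1*) and 1 lower (*Dpp4*), and their part in the protease values was not tested.

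Proliferation genes gave few calls (5%, against 15.1% of all genes). Of 40 genes of DNA replication and mitosis, *Tk1*, thymidine kinase (log2 fold change 1.36, edgeR adjusted p = 0.0111), and *Bub1*, a mitotic checkpoint kinase (log2 fold change 1.46, edgeR adjusted p = 0.0114), were higher, with 36 of 40 fold changes positive and a median of 0.47. Leaving out single libraries gave 0 to 4 higher calls in this list, with *Aurka*, *Ccnb1*, *Ccnb2* and *E2f1* gained in 1 or 2 cases each (log2 fold changes from 1.03 to 1.06). *Tk1* was lost without WT replicate 2 (log2 fold change 1.10, adjusted p = 0.0565), and *Bub1* without it (log2 fold change 1.26, adjusted p = 0.0538) or without GLP-1R agonist replicate 1 (log2 fold change 1.26, adjusted p = 0.0515).

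Receptors and ligands of the axes that the study treated gave 1 higher and 4 lower calls of 27 (18.5%, near the 15.1% of all genes called). *Lepr*, the leptin receptor, had 713, 981 and 703 in WT, 115, 180.2 and 150.1 in the GLP-1R agonist group and 1385, 1379.7 and 1741 in Vehicle. The treated libraries were below both other groups (log2 fold change -2.43 ± 0.23, edgeR adjusted p = 4.86e-07 against WT). *Il17ra*, the common receptor chain of IL-17 cytokines, had 3774, 3978 and 3635 in WT and 9060.1, 7612 and 8078 after treatment (log2 fold change 1.12 ± 0.089, edgeR adjusted p = 7.57e-08), with Vehicle at 8775, 9241 and 8259. *Il17re*, the receptor of IL-17C, was lower, with 777, 636 and 695 in WT and 72.7, 182 and 133 after treatment (log2 fold change -2.45 ± 0.58, edgeR adjusted p = 0.00354), and so was *Dpp4*, the peptidase that inactivates GLP-1 (log2 fold change -1.74 ± 0.22, edgeR adjusted p = 1.59e-05). *Il17a* itself was sparse, with 29.8, 47.3 and 22.9 in WT, 6.97, 17.6 and 0.873 after treatment and 212, 172 and 278 in Vehicle. Its difference from WT (log2 fold change -2.02, edgeR adjusted p = 0.0362) lost its call without GLP-1R agonist replicate 1 (log2 fold change -1.91, adjusted p = 0.103) or 3 (log2 fold change -1.45, adjusted p = 0.0886) and without WT replicate 1 (log2 fold change -2.09, adjusted p = 0.0576) or 2 (log2 fold change -1.68, adjusted p = 0.119). *Lep*, whose transcript *Ob/Ob* mice make without functional protein, had 120.3, 254 and 348 and 468, 559.5 and 408 (log2 fold change 0.99 ± 0.32, edgeR adjusted p = 0.0267), within the limit with all libraries and beyond it without GLP-1R agonist replicate 3 (log2 fold change 1.09, adjusted p = 0.0353) or WT replicate 3 (log2 fold change 1.35, adjusted p = 0.00782). *Il17rd* gained a call only without WT replicate 3 (log2 fold change 1.50, adjusted p = 0.0401), and single exclusions gave 1 to 3 higher and 3 to 4 lower calls in this list.

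A list of 32 macrophage-regulatory, M2 and checkpoint genes, most of which the study names, had 6 higher and 3 lower, with a median of 0.22. The study chose those on samples of this series, so the counts are not independent evidence of a direction. *Retnla*, *Ciita* and *Irf7* were the lower ones, the last (log2 fold change -1.02, edgeR adjusted p = 4.72e-09), a call lost without GLP-1R agonist replicate 2 (log2 fold change -0.99, adjusted p = 1.05e-07). *Irf7* had 174448, 169563 and 174818 in Vehicle. *Dusp1* and *Id2* were not called, at -0.25 and -0.00303 on the log2 scale. Those higher were *Chil3*, *Fosl1*, *Il10*, *S1pr4*, *Cd8a*, a T cell coreceptor, and *Pdcd1lg2*, a ligand of PD-1 whose call was lost when any library but WT replicate 2 was left out (adjusted p 0.052 to 0.109).

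**Figure D3:**
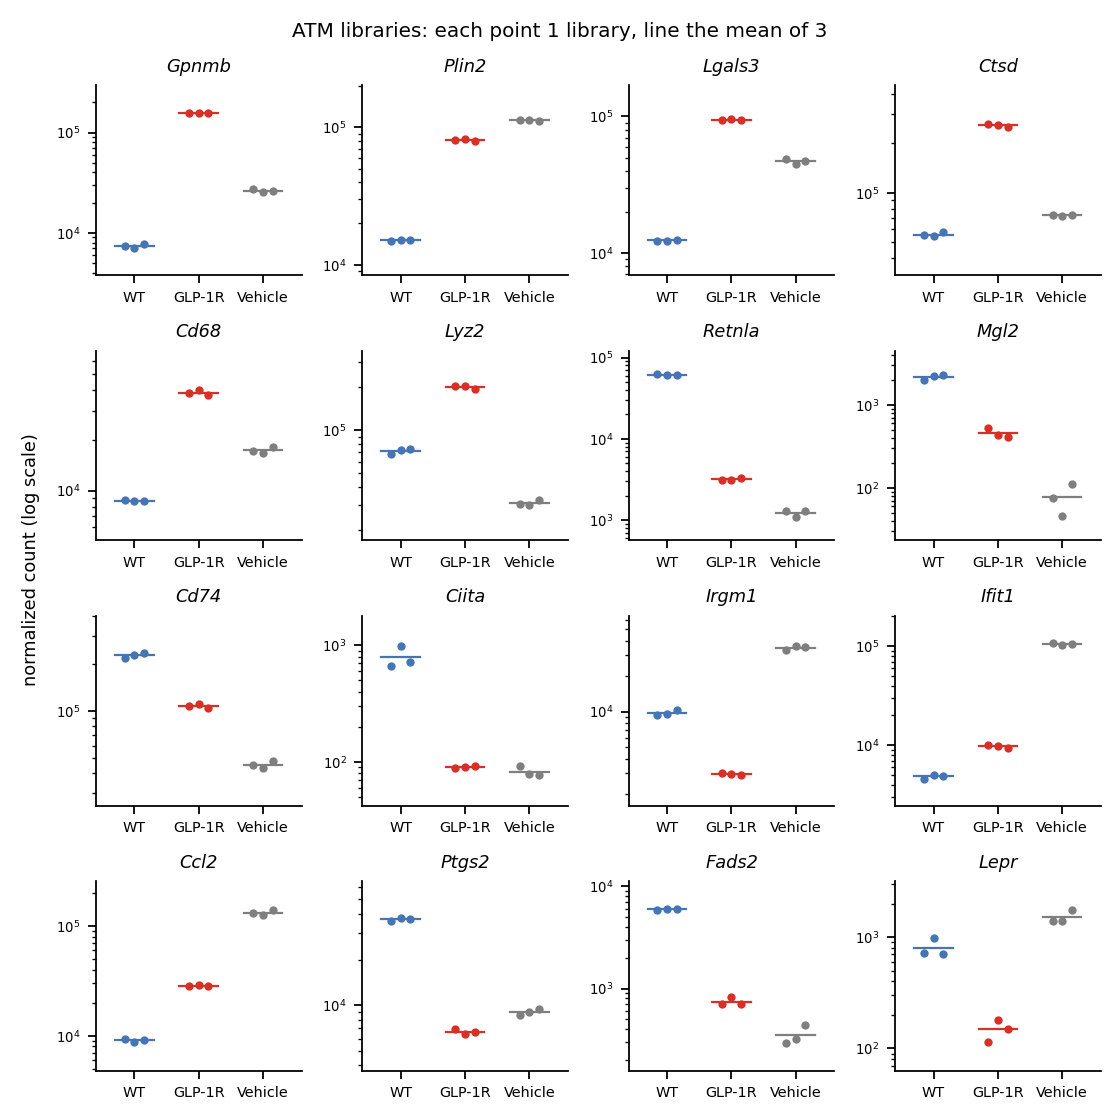
Normalized counts (y, log scale) of 16 genes in the ATM libraries of lean WT, GLP-1R agonist (GLP-1R) and Vehicle recipients, 1 point per library, lines at the mean of 3. *Gpnmb*, *Plin2*, *Lgals3*, *Ctsd* and *Cd68* are above WT in every treated library, *Retnla*, *Mgl2*, *Cd74*, *Ciita*, *Irgm1*, *Ptgs2*, *Fads2* and *Lepr* below it. The Vehicle libraries carry the sex-linked pattern opposite to the other groups.

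Transcripts of other immune cells differed between the groups. All 9 mast cell markers were higher in the GLP-1R agonist group, with a median of 2.77 and a summed level of 9062 to 9357 normalized counts in WT and 61515 to 62328 after treatment. *Cma1*, mast cell chymase, had 1904, 1863 and 1862 and 13585, 13780.4 and 12578 (log2 fold change 2.83 ± 0.053, edgeR adjusted p = 2.19e-15), and *Tpsb2*, a tryptase, 2382, 2716 and 2528 and 18454, 18548 and 19918 (log2 fold change 2.90 ± 0.061, edgeR adjusted p = 1.02e-14). The call of *Ms4a2*, the β chain of the IgE receptor, was lost without GLP-1R agonist replicate 1 (log2 fold change 1.85, adjusted p = 0.0799) or 3 (log2 fold change 2.09, adjusted p = 0.0543) and WT replicate 1 (log2 fold change 1.74, adjusted p = 0.0785) or 3 (log2 fold change 2.29, adjusted p = 0.052). Vehicle libraries summed to 64707 to 69312, and 8 of 9 markers were higher there than in WT.

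Of 12 T cell markers, 6 were higher and none lower, with a median of 1.03 and sums of 13912 to 15069 in WT and 28629 to 29871 after treatment. *Cd2*, an adhesion receptor, had 1486, 2006 and 1708 and 6254, 6139.7 and 5921 (log2 fold change 1.82 ± 0.088, edgeR adjusted p = 1.96e-10), while *Cd3e*, part of the T cell receptor complex, was not called (log2 fold change 0.33 ± 0.096, edgeR adjusted p = 0.0148). Of 12 NK and innate lymphoid markers, 5 were higher and 1 lower. *Gzmb*, granzyme B, had 413, 525 and 558 and 5610, 5661 and 5243 (log2 fold change 3.46 ± 0.10, edgeR adjusted p = 3.31e-13), whereas *Gzma*, named after its values were seen, was lower (log2 fold change -1.58, edgeR adjusted p = 6.43e-06). *Il1rl1*, the IL-33 receptor, was higher (log2 fold change 2.18, edgeR adjusted p = 2.70e-08). Neutrophil markers, very high in Vehicle, gave few calls here, with 2 of 14 lower (14.3%, against 15.1% of all genes called), 6 of 14 fold changes positive and a median of -0.26. *S100a8* had 1992, 1979.8 and 1848 in WT, 1505, 1531 and 1553 after treatment and 329581, 306939 and 318196 in Vehicle, and the lower genes were *Ltf* (log2 fold change -1.75, edgeR adjusted p = 9.04e-11) and *Mmp9*. Eosinophil markers gave 3 lower of 8 (*Ear2*, *Alox15* and *Siglecf*), with a median of -1.27, and the call of *Siglecf* was lost without any of 4 single libraries (adjusted p 0.0603 to 0.0929). Dendritic cell markers gave 2 lower of 12 (16.7%, near the 15.1% of all genes called), *Cd209a* (log2 fold change -3.75, edgeR adjusted p = 4.91e-06) and *Dpp4*.

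**Figure D4:**
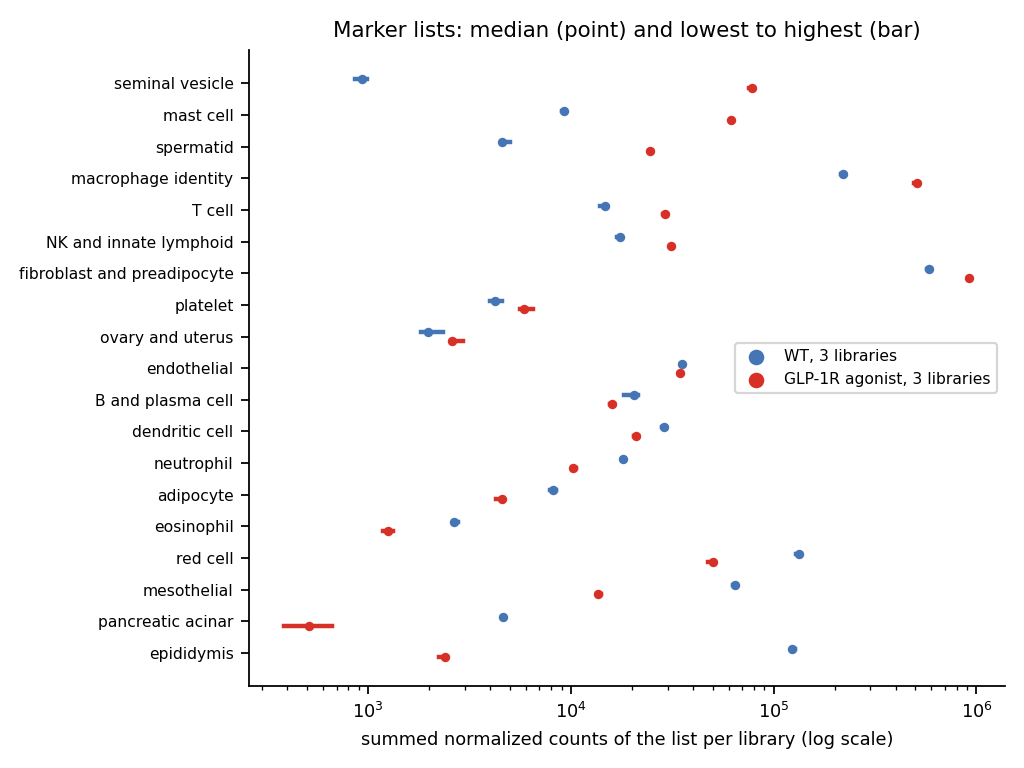
Summed normalized counts (x, log scale) of 18 marker lists and the macrophage identity list in the ATM libraries of WT and the GLP-1R agonist group, points at the median and bars from the lowest to the highest of 3 libraries. Seminal vesicle and mast cell sums are higher in the GLP-1R agonist group than in WT, epididymis, pancreatic acinar and mesothelial sums lower, and endothelial sums lie together.

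Cells of the fat depot and its surface also left transcripts. Mesothelial markers were lower in 8 of 10, with a median of -2.09 and sums of 63036 to 65331 in WT and 13469 to 14085 after treatment. *Upk3b*, a surface protein of mesothelium, had 19256, 20287 and 20237 and 1759.8, 1646 and 1848 (log2 fold change -3.51 ± 0.13, edgeR adjusted p = 5.43e-12), and *Krt19*, a keratin, 11043, 11161 and 10476 and 1439, 1432 and 1467 (log2 fold change -2.91 ± 0.10, edgeR adjusted p = 3.34e-12). *Adipoq*, the adipocyte hormone adiponectin, had 888, 923 and 849 and 288, 236 and 235 (log2 fold change -1.81 ± 0.17, edgeR adjusted p = 6.53e-07), and *Retn*, resistin, was lower (log2 fold change -3.26, edgeR adjusted p = 1.52e-06). Endothelial markers split with 2 higher (*Cldn5* and *Flt1*) and 2 lower (*Vwf* and *Lyve1*) of 12. *Alas2*, the erythroid enzyme of heme synthesis, was abundant, with 126786, 131760 and 134256 in WT, 49571, 49515 and 46497 after treatment and 222322, 222183 and 218423 in Vehicle (log2 fold change -1.43 ± 0.028, edgeR adjusted p = 5.35e-15). Of 7 platelet markers, 2 were lower, 3 had positive fold changes, and the list summed to 4013 to 4558 in WT and 5646 to 6506 after treatment, and *Ppbp*, a platelet chemokine, was among those lower (log2 fold change -1.29, edgeR adjusted p = 0.00735). All 9 spermatid markers were higher, with sums of 4557 to 5022 and 24263 to 25103, and all 9 were lower in Vehicle than in WT. The call of *Odf1* was lost when any library but GLP-1R agonist replicate 2 was left out (edgeR adjusted p 0.0577 to 0.133). Of 16 pancreatic acinar markers, *Rnase1* had 2081, 2186 and 2089.8 in WT and 43.8, 70.4 and 74.2 after treatment, *Pnliprp1* had 2308, 1999 and 2078 and 0, 54.2 and 33.2, and both were lower, while the higher *Clps* and *Try5* had at most 4.36 and 13.9 normalized counts in a library, and the call of *Try5* was lost when any library but GLP-1R agonist replicate 2 was left out (adjusted p 0.0705 to 0.163). Of 7 ovary and uterus markers, *Inhba*, a subunit of activin, and *Hsd3b1*, a steroid dehydrogenase, were higher (log2 fold change 1.92 and 3.44). In the epididymis list, 10 of 15 markers were lower and *Adam28* and *Cst8* higher, and in that of the seminal vesicle 7 of 8 were higher. The call of *Adam28* was lost without GLP-1R agonist replicate 1 or WT replicate 1 or 3 (edgeR adjusted p 0.057 to 0.0849). How these transcripts relate to the macrophage lists was not tested.

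The same contrast was set beside BM, where 3 GLP-1R agonist and 3 WT libraries came from the same experiment, to ask which differences from lean depend on the tissue. Of 13076 genes measured in both, the difference between the tissues was called for 2302 (17.6%), with 1257 more positive in ATMs (9.61%) and 1045 more negative (7.99%). For 22 lipid-associated genes in both tables, 19 were more positive in ATMs and none more negative, with a median fold change of 1.95 in ATMs and -0.08 in BM on the log2 scale. For 34 lysosome genes it was 22 and 0, with medians of 0.87 and -0.17.

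*Il1rn* had 2762, 2708 and 2687 normalized counts in BM of WT mice and 456, 462 and 454 after treatment, opposite to its direction in ATMs (difference of log2 fold changes 4.63 ± 0.081, edgeR adjusted p = 4.40e-25). *Fcer1a*, the α chain of the IgE receptor on mast cells and basophils, had 1242, 1184 and 1160.2 and 413, 467 and 440.4 in BM, lower after treatment, while it was higher in ATMs (difference of log2 fold changes 4.65 ± 0.21, edgeR adjusted p = 2.02e-16). *Gzmb* likewise was lower in BM, with 193, 233 and 241 and 118, 117 and 124 (difference of log2 fold changes 4.36 ± 0.14, edgeR adjusted p = 1.11e-19). Large differences of the other sign among list genes included those of *Lrrn4*, a mesothelial marker, and *Epx*, eosinophil peroxidase. *Lrrn4* had 10.7, 12.3 and 17.5 in BM of WT and 59.2, 53.6 and 35.3 after treatment, and 5214, 5510.1 and 5782 and 330.5, 432 and 612 in ATMs (difference of log2 fold changes -5.47 ± 0.43, edgeR adjusted p = 3.31e-11). *Epx* had 3155, 3429 and 3437 in BM of WT and 2565, 2530.3 and 2555 after treatment, and 0, 11.6 and 0 and 0, 0 and 0 in ATMs (difference of log2 fold changes -4.71 ± 1.82, edgeR adjusted p = 0.0434). Normalized counts of BM and ATMs are on separate scales, so their levels compare within a tissue only.

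For MHC class II and interferon-stimulated genes, list medians were below 0 in both tissues. The medians of 14 class II genes were -0.98 in ATMs and -1.84 in BM, with 4 genes more positive in ATMs and 1 more negative. Those of 33 interferon-stimulated genes were -0.62 and -1.80, with 15 more positive in ATMs and 1 more negative. B cell markers had a median of -3.34 in BM and -1.15 in ATMs, with 7 of 9 genes more positive in ATMs. BM is a mixture of all marrow cells and ATMs are a sort, so cell composition and expression per cell cannot be told apart in this difference.

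**Figure D5:**
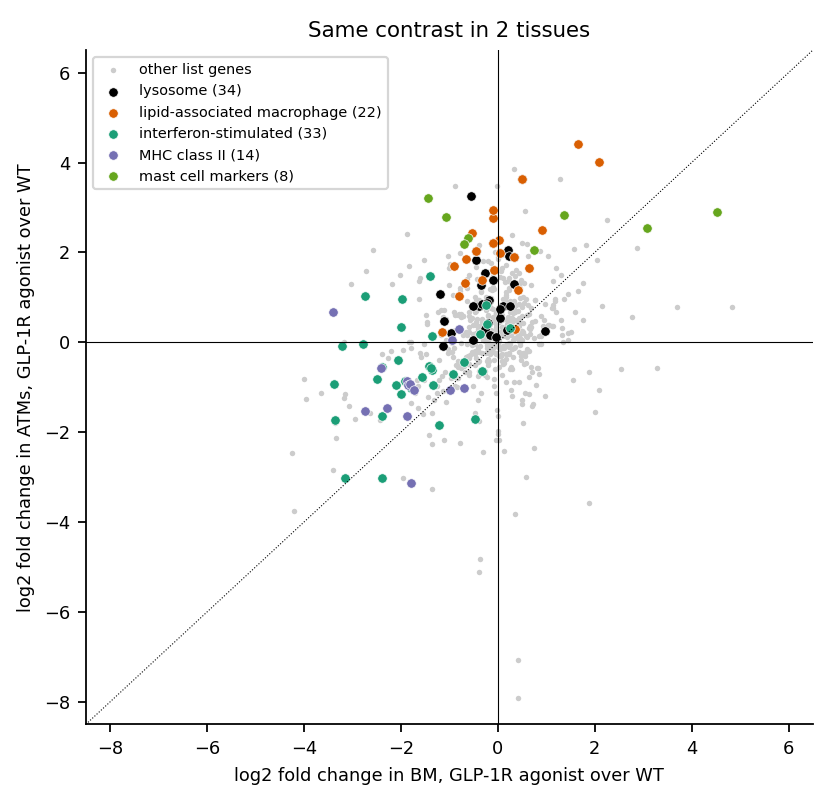
Log2 fold change of GLP-1R agonist over WT in ATMs (y) against the same contrast in BM (x) for the 644 list genes measured in both tissues, 1 point per gene, dotted line at equality. Nearly all lipid-associated and lysosome genes lie above the line, with medians of 1.95 and 0.87 in ATMs, and class II and interferon-stimulated genes lie below 0 in both tissues for the most part.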

How the data were processed

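RNA of BM cells and of F4/80+ cells sorted from visceral fat was sequenced as paired, unstranded libraries. The deposited values are raw counts per gene, which the authors made with STAR 2.7.2a on mm10 (GRCm38) and featureCounts 2.0.1 with GENCODE M22. Reads lying over several genes were counted for each, so overlapping genes share reads. Counting error is small at 24876074 to 39778889 counts per library here, and the spread between libraries sets the precision.

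All 15 ATM libraries in 5 groups were fitted with edgeR 4.0.16 in R 4.3.3 (quasi-likelihood test, robust, TMM scaling, filterByExpr, which removed 0 of 17059 genes). Calls required a Benjamini-Hochberg adjusted p below 0.05 together with a log2 fold change beyond 1, limits the authors also used. For normalized counts of ATMs, each library was divided by its effective size and scaled to the mean of the 15. The comparison with BM was a second edgeR fit of all 30 libraries, testing the interaction over 13076 genes. Normalized counts of BM come from this second fit and are scaled to the mean of its 30 libraries. Tested on simulated data of 17059 genes for the GLP-1R agonist against WT comparison, edgeR recovered 92 of 100 genes changed 4-fold and 96 of 100 changed 8-fold and called 3 others, and DESeq2 recovered 97 and 97 and called 22 others. Changed genes were drawn only from those with a mean of at least 50 counts. All other genes were equal in all groups, and libraries were drawn independently with the fitted dispersion. The figures thus do not cover sparse genes or libraries of a shared pool.

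Named genes were the 10 largest called changes in each direction with a mean of at least 50 counts and no overlap, the 4 called members of each list with the smallest adjusted p and its 2 most abundant members not called, *Adgre1*, *Ptpn11*, *Glp1r*, *Lep*, *Lepr*, *Il17a*, *Il17ra*, *Lyz2*, the sex-linked genes, and the 3 list genes with the largest difference between tissues in each direction. Some genes that these rules or counts cover are not reported here. Other names are said to have been chosen after their values were seen. The comparison, the 43 gene lists and the tests were chosen with earlier results of these data known. A gene at 0 in all libraries of a group is given as a bound against 3 counts per library. Alternatives were DESeq2's size factors, DESeq2 1.42.0, limma 3.58.1, stricter or no count filters, other limits on the fold change, only the compared libraries, a replicate block and leaving out each library. Positions come from GENCODE M21 (GRCm38), which the authors' M22 may differ from, and promoters from RefSeq (GRCm38.p6), and 740 of 741 list genes had a position.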

Additional observations from a re-analysis of the deposited data

Results flagged for a closer look

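The difference from lean recipients was not the same in ATMs and BM for 2302 of 13076 genes (17.6%), by the edgeR test of the interaction between tissue and group. Among the genes of the lists, the largest positive differences of log2 fold changes were those of *Fcer1a* (4.65, with 3.21 in ATMs and -1.44 in BM), *Il1rn* (4.63, with 2.06 and -2.57) and *Gzmb* (4.36, with 3.47 and -0.89). Large negative ones were those of *Lrrn4* (-5.47, with -3.58 in ATMs and 1.89 in BM) and *Epx* (-4.71, with -5.10 and -0.39). Treated ATM libraries were at 0 for *Epx*, and so were most WT ones. Its difference (standard error 1.82) thus rests on very few counts in ATMs and depends on the prior count. What sets the tissues apart was not tested.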

How the results depend on the processing

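The count of 2578 genes called between GLP-1R agonist and WT was 6056 without a limit on the fold change and 1073 when edgeR tested against a log2 fold change of 1. It was 2577 with DESeq2's size factors, 2908 with DESeq2 (2493 of them shared), 2149 with at least 10 counts in every library, 3162 with the 6 libraries alone and 2217 to 2258 with 1 library left out, which was not run for the difference between tissues. Without a limit on the fold change, Vehicle against WT gave 9704 genes, GLP-1R agonist against Vehicle 9176 and the difference between tissues 5545. GLP-1R agonist against Vehicle gave 3420 genes with at least 10 counts in every library. That filter also moved the share of higher calls, from 35.2% to 46.8% in Vehicle against WT and from 65.6% to 52.1% in GLP-1R agonist against Vehicle. The median of the sex-linked list, which is below 0 with all libraries, was 0.157 with at least 10 counts in every library and 0.123 with the 6 libraries alone. Of 153 called genes among the named ones, 118 passed under each of the 12 to 14 alternatives run for them (the one without a fold limit not counted), 14 were lost when 1 library was left out, 19 only in the test against 1, and 0 reversed. The named genes were mostly picked by small adjusted p or large change, so these counts do not describe the other calls.

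Replicate numbers are shared by the groups but did not pair the libraries, since deviations of same-numbered WT and GLP-1R agonist libraries correlated at -0.11, -0.08 and -0.19 and 0 of 3 libraries correlated best with their own number. With a replicate block, 2440 genes were called (2372 shared), 5922 for Vehicle against WT, 5319 for GLP-1R agonist against Vehicle and 2287 for the tissues. Depth is not the limit for abundant genes, whereas between 20 and 100 normalized counts the median coefficient of variation was 37.7% in WT and 39.0% in the GLP-1R agonist group.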
